A study of Mus musculus and Homo sapiens with 56 samples.

Results

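All 48445 m6A peaks called in wild-type E14TG2a mouse embryonic stem cells were placed on the genes and exons of the accompanying count table, and were joined to the RNA level of each gene in 2 wild-type RNA libraries. The peaks came from 1 list that stands for 2 m6A immunoprecipitates and 2 inputs of chromatin RNA, and the 6 samples used here belong to a series of 56. E14TG2a is an established line of pluripotent cells taken from a mouse blastocyst, and the labels give its treatment as untreated. It was grown without feeder cells on gelatin, in N2B27-based medium with LIF, the MEK inhibitor PD0325901 and the GSK3β inhibitor CHIR99021, which hold the cells in the naive state. Chromatin RNA was fragmented and captured with an antibody against m6A, while the RNA libraries were made from total RNA after removal of ribosomal RNA. The series asked how m6A relates to the histone mark H3K9me2, and the present data answer which genes carry m6A, at how many places, where along the gene, and how that follows RNA level and gene length.

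N6-methyladenosine, or m6A, is the most common internal modification of messenger RNA. It is written during transcription by a complex built on METTL3 and METTL14, with WTAP, VIRMA, ZC3H13 and RBM15 as further subunits, and is bound by the YTH proteins. The sites lie mostly in a short motif whose core is GGAC, and are known to gather in long internal exons and near stop codons. In embryonic stem cells m6A is known for marking pluripotency transcripts and shortening their lifetime. Because the immunoprecipitated RNA here was bound to chromatin, unspliced and non-coding transcripts can appear beside mature messages.

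The RNA libraries held 13953069 assigned counts for WT_1 and 19246342 for WT_2. Across genes their levels in TPM, which are counts per exonic length scaled to a common library total, had a Spearman rho of 0.980, and the median absolute log2 ratio between them was 0.12. The libraries are not the same library deposited again, since their counts differed by more than sampling noise, with a chi-square of 2.52 per degree of freedom. Nothing in the labels says whether they came from separate cultures. All 12 markers of embryonic stem cells reached 1 TPM, with a median of 598 TPM, and 6 of 7 primed epiblast, 5 of 8 primitive endoderm, 5 of 7 neural and 4 of 10 fibroblast markers did. The median of those that did was 7.85 TPM for primed epiblast, 2.17 for endoderm, 5.99 for neural and 8.40 for fibroblast markers, with the highest at 38.3 TPM for Dnmt3b, 7.05 for Gata4, 130 for Stmn2 and 128 for Vim. The neural marker Tubb3 stood at 76.2 TPM, and the fibroblast gene Dcn was at 0. The RNA is from bulk cells, so a low level in all cells and a higher level in few cells cannot be told apart. The peak list has no replicate spread of its own, and every share below is a description of that list.

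The sequences that follow come from places where a reference sequence was at hand. These were windows of 300 bases about annotated gene starts (250 before, 50 after) and microRNA hairpins, both from RefSeq on GRCm38.p6. The peak list has no strand, so neither the strand nor the exact extent of the captured RNA is known there. A peak summit, the base of highest enrichment, fell in 434 of 32851 windows. The 3 windows with the strongest such peaks are shown 5′ to 3′ on the gene's own strand with the m6A core motif GGAC in capitals. They belong to Nhs (chrX:162159392-162159691, minus strand), Rnf214 (chr9:45906862-45907161, minus strand) and Hunk (chr16:90386147-90386446, plus strand).
Nhs: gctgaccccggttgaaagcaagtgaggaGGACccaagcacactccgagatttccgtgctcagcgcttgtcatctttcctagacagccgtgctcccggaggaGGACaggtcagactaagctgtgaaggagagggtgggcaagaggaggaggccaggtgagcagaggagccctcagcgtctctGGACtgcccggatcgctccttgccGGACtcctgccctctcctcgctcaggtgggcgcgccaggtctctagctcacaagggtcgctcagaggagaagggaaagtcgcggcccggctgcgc
Rnf214: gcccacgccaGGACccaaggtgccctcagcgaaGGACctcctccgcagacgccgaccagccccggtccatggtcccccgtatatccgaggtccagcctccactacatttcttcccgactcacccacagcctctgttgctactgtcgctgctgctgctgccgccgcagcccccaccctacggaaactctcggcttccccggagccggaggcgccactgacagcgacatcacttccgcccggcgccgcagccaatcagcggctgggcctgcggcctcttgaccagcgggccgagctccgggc
Hunk: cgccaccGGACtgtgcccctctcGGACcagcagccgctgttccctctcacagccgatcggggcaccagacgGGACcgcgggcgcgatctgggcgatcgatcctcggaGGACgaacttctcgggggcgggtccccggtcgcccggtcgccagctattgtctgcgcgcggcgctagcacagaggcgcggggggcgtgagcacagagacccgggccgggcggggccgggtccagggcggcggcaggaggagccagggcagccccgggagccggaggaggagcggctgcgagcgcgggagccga
The Nhs summit lay 67 bases before the annotated start, with a fold enrichment over input of 32.2. Nhs, a regulator of actin at the cell edge, had 1.71 and 2.07 TPM in WT_1 and WT_2, and its window held 4 copies of GGAC. In the count table Nhs begins farther upstream than in RefSeq, so that this summit lies on one of its exons. Rnf214, which encodes a RING finger protein, had its summit 81 bases before the start at 22.4-fold. That peak shared more exonic bases with Pcsk7, a convertase gene on the other strand, and was counted there. Hunk, a protein kinase of the SNF1 family, had its summit 90 bases before the start at 22.3-fold. All 3 summits lay on the upstream side of the RefSeq start, where the windows hold 250 of their 300 bases. Their side therefore follows in large part from the choice of window. In the 434 windows with a summit, the longer motif GGACT was present on the gene's strand in 33.6%, against 26.1% of all windows. On the other strand the shares were 35.9% and 26.0%. The shorter GGAC, which every GGACT contains, was present in 71.0% against 65.6% on the gene's strand and in 76.0% against 66.1% on the other. The windows with a summit were also richer in G and C, with a median of 58.0% against 52.7%, and a motif of these letters is more frequent in such sequence. The part of base composition in the motif shares was not tested.

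Of 1005 microRNA hairpins, 52 overlapped a peak (5.17%), and 42 of them lay wholly inside one. The hairpin of miR-210, a microRNA known for its response to low oxygen, lay at chr7:141221384-141221493 on the minus strand under a 2.81-fold peak, and is shown because it held 2 copies of GGAC, in capitals.
Mir210 hairpin: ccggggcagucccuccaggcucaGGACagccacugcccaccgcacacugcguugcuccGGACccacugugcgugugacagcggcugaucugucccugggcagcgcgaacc
Mature microRNAs from 3 further hairpins under peaks are shown with the seed (bases 2 to 8) in capitals, because their seeds differ from each other and from that of the stem cell microRNAs given after them. Mir671 lies in the Smarcd3 locus, on the other strand, under a 12.6-fold peak, and Mir345 lies in Slc25a47 under a 12.7-fold peak. Mir673 lies just past the end that the table gives for the imprinted non-coding gene Meg3, under a 7.89-fold peak that overlaps that end and has its summit beyond it.
miR-671-5p: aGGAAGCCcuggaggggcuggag
miR-345-5p: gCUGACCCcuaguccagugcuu
miR-673-5p: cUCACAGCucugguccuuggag
The microRNAs that dominate in mouse embryonic stem cells come from the miR-290 to miR-295 cluster, and none of its 7 hairpins in the reference lay under a peak. A pair of its products are shown with their common seed.
miR-294-3p: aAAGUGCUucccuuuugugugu
miR-295-3p: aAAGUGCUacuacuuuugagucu
Neither did a peak cover any of 5 hairpins of the miR-302 and miR-367 cluster, 6 of the miR-17 to miR-92 cluster, or 11 of the let-7 family. Since 5.17% of all hairpins lay under a peak, none in families of this size is near the overall share and sets none of them apart. GGAC on the hairpin strand was found at about the same share under peaks as in all hairpins, in 13 of 52 hairpins under a peak (25.0%) and in 246 of all 1005 (24.5%).

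By the rule of 1 shared base, most peaks inside genes were on exons. A peak was placed on an exon where it shared at least 1 base with one, which held for 21699 peaks or 44.8% (29.4% when genes whose exons overlap those of another gene were left out). A further 10490 peaks (21.7%) lay in introns, 3659 (7.55%) within 5 kb of a gene, and 12597 (26.0%) farther away. Exonic peaks had a median fold enrichment of 6.11 and a median width of 687 bases, and distal peaks had medians of 7.01-fold and 532 bases. Exonic peaks had the higher significance, with a median −log10 q of 25.7 against 13.7 for distal peaks. Of the peaks within 5 kb, 2264 were downstream of the nearest gene and 1395 upstream. The nearest gene reached 1 TPM for 64.6% of the downstream peaks and for 51.8% of the upstream peaks. The peak list has no strand, so a peak over overlapping genes of opposite strands cannot be assigned by strand, and 1761 exonic peaks touched exons of more than 1 gene. Such a peak was given to the gene with the most bases under it, and 175 ties were left out.

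The sex chromosomes differed in this placement. On the X chromosome 52.0% of 2339 peaks were distal, on the Y chromosome 76.7% of 172 were, and on the autosomes the distal share ran between 13.7% and 34.9%. Among X-linked genes at 1 TPM or more, 253 of 590 had an exonic peak (42.9%), where genes of the same level and length had one in 53.7% of cases. No peak was listed on the mitochondrial chromosome, although 30 mitochondrially encoded genes reached 1 TPM. Whether that chromosome was part of the peak calling is not stated in what was used here.

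Of the 52459 genes of the table, 11608 carried at least 1 exonic peak (22.1%), and of the 17562 genes at 1 TPM or more 9617 did (54.8%). Among genes of that level, 5090 had 1 peak, 2333 had 2, 1076 had 3, 550 had 4 and 568 had 5 or more (3.23%). With at least 0.5 of a peak required on the exons, 133 genes had 5 or more, and with the summit required there 225. At 10 or more peaks 47 genes were left. A further 675 genes had peaks in introns only, and 6770 (38.5%) had none in exon or intron. Exonic carriers had a median exonic length of 4365 bases, against 1561 bases in genes without an exonic peak. They had a median of 9 exon blocks, a block being a stretch of merged exons, against 3 blocks. Their median level was 23.7 TPM, against 8.46 TPM. With the libraries taken singly, the carriers had median levels of 23.1 TPM in WT_1 and 24.2 TPM in WT_2, and genes without an exonic peak had 8.38 TPM in WT_1 and 8.60 TPM in WT_2.

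The share of genes with a peak was higher at higher RNA levels, up to 100 TPM, and lower again among the most abundant transcripts. It was 1.06% among genes with no count, 9.90% up to 0.1 TPM, 22.9% between 0.1 and 1 TPM, 34.3% between 1 and 3 TPM and 46.7% between 3 and 10 TPM. It reached 66.2% between 10 and 30 TPM and 69.8% between 30 and 100 TPM, and stood at 50.3% in the 2213 genes at 100 TPM or more. When the bins were formed from WT_1 or WT_2 alone, the order from 0.1 TPM upward was the same. The strength of the peaks followed another course. The strongest exonic peak of a carrier had a median fold of 10.3 between 3 and 10 TPM, 7.34 between 30 and 100 TPM and 5.17 at 100 TPM or more. Across the 9617 carriers, the fold of the strongest peak and the TPM had a Spearman rho of −0.33. The list was thresholded on significance, which depends on reads as well as fold, and the part of that threshold in the relation was not tested. The levels are from total RNA and the peaks from chromatin RNA, and the part of this difference was not tested either.

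**Figure D1:**
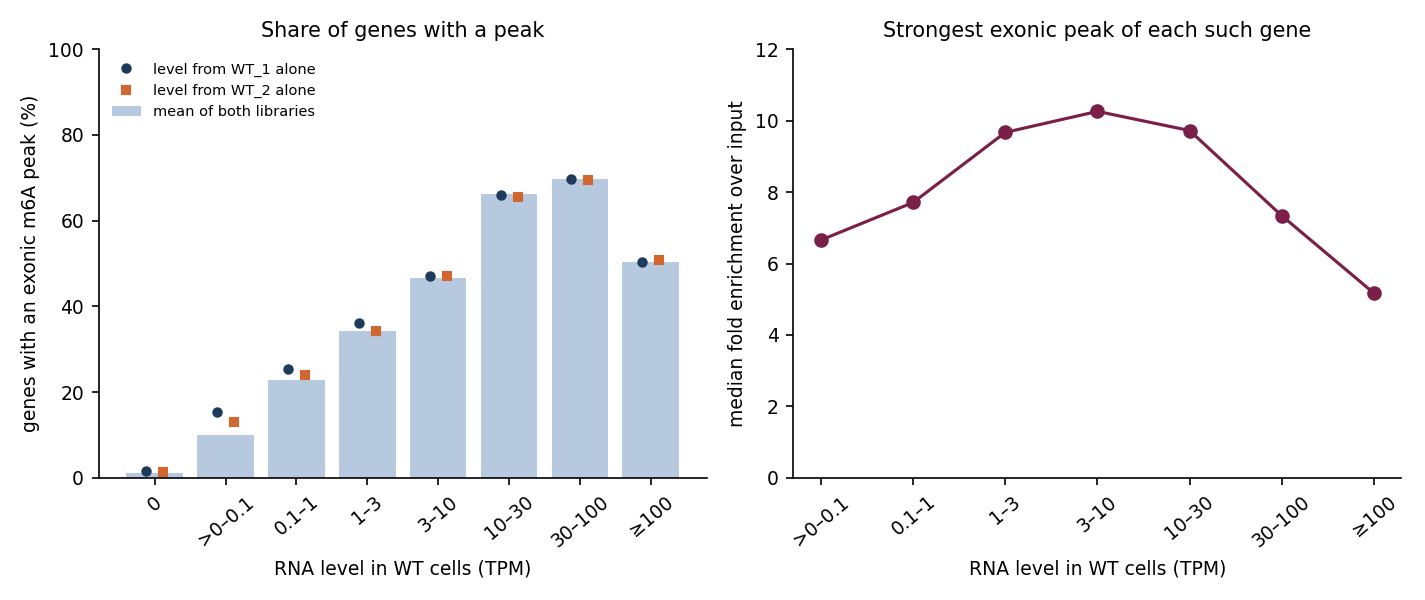
The left panel plots the percentage of genes with an exonic m6A peak in 8 bins of RNA level in TPM, with bars for the mean of both WT libraries and points for each library alone. The right panel plots the median fold enrichment over input of the strongest exonic peak of those genes in each bin above 0. The share peaks at 69.8% between 30 and 100 TPM, while the fold peaks at 10.3 between 3 and 10 TPM.

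Among genes at 1 TPM or more, exonic length was followed more closely than RNA level. Among genes at 1 TPM or more, an exonic peak was found in 6.56% of those under 0.5 kb, 23.8% between 0.5 and 1 kb, 42.4% between 1 and 2 kb, 59.0% between 2 and 4 kb, 75.9% between 4 and 8 kb and 85.4% of those of 8 kb or more. Genes with 5 or more peaks made up 17.6% of the longest bin and 0.404% of the bin between 2 and 4 kb. Across the 17562 genes the number of peaks had a Spearman rho of 0.55 with exonic length and 0.20 with TPM. Restricted to genes at 10 TPM or more, the rho with TPM was −0.10, and over the whole table it was 0.59. Over the whole table the rho with length was 0.51, so that the order of the 2 relations was the other way round there. Within bins of RNA level the rho with length stayed between 0.42 and 0.59, whereas within bins of length the rho with TPM lay between 0.008 and 0.13. These correlations are across genes, which are not replicates and which share libraries, so they carry no p. Length and level are themselves related, with a rho of 0.27. The reads of a gene in the RNA libraries follow both. Peaks were called on chromatin RNA, whose level per gene can differ from that in total RNA. The part of read number in the number of peaks was not tested.

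Per exonic kilobase the longest genes had the fewest peaks. From the shortest bin to the longest, peaks numbered 0.302, 0.364, 0.352, 0.309, 0.281 and 0.228 per kb. The drop at high RNA level was present at every length. Between 1 and 2 kb the share was 59.5% at 30 to 100 TPM and 33.8% at 100 TPM or more, and between 4 and 8 kb it was 79.0% and 68.8%. At 8 kb or more the shares were 85.7% and 81.0%.

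**Figure D2:**
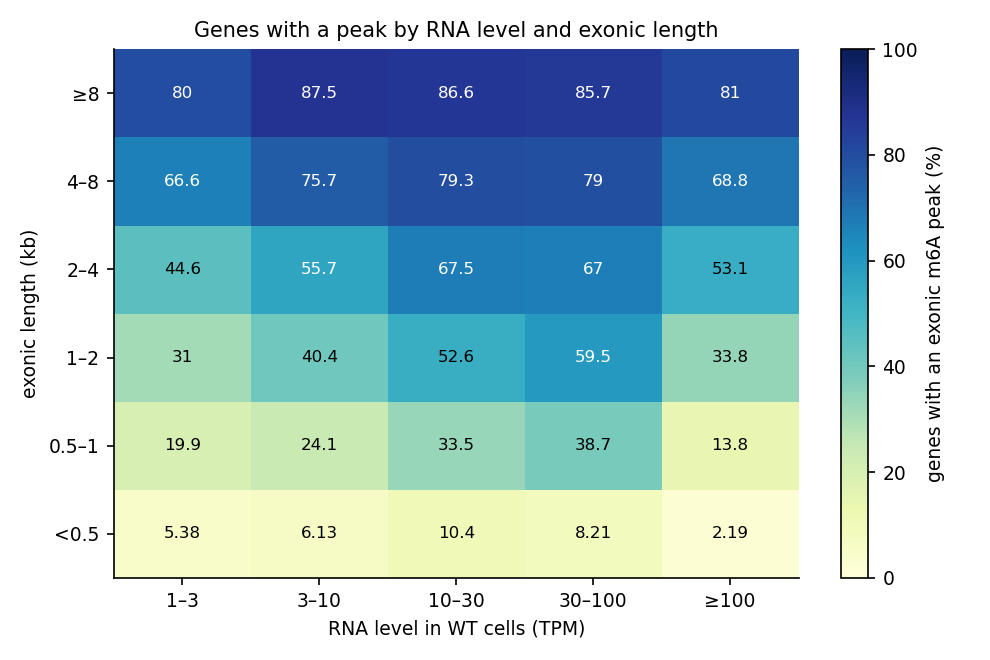
The map gives the percentage of genes with an exonic m6A peak by RNA level in TPM (horizontal) and exonic length in kb (vertical), for genes at 1 TPM or more in the mean of both WT libraries. Each column grows darker towards long genes, and in every row the cell at 100 TPM or more is below the cell at 30 to 100 TPM.

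The genes with the most exonic peaks were long and mostly at moderate levels. Ttn, which encodes the giant muscle protein titin, had 26 peaks over 116825 exonic bases, at 15.9 and 15.4 TPM in WT_1 and WT_2. The widest peak of the whole list, 17144 bases, lay on it at chr2:76736160-76753303, in a region that the table counts as exon. These counts include every peak that shares a base with an exon, and the number with the summit on an exon of the gene is given beside each. For Ttn it was 22. Tnrc18, which encodes a large nuclear protein with a BAH domain, had 20 peaks, 11 of them with the summit on an exon, at 75.4 and 72.4 TPM. Ep400, the ATPase of a TIP60-type chromatin remodelling complex, had 19 peaks, 10 with the summit on an exon, at 85.2 and 85.8 TPM. Mga, a partner of Max that represses germ-cell genes in stem cells, had 17 peaks, 11 with the summit on an exon, at 160 and 161 TPM, in 15340 exonic bases. Its peaks ran from the first block to the last, with the strongest, 6.82-fold, in the last. Sipa1l3 had 17 peaks, 8 with the summit on an exon, and Kcnq1ot1 had 16, all of them so. Pdzd2 and Cep350 had 15 each, of which 10 and 6 had the summit on an exon. Sptbn4 had 14 and Soga1 13, with 8 each, and Pclo and Akap9 had 12, with 12 and 6. Kmt2d and Lrp6 also had 12, with weaker strongest peaks, and 8 and 7 had the summit on an exon. By summits the order therefore differs, with Kcnq1ot1 and Pclo next after Ttn. Pclo, which encodes the presynaptic protein piccolo, carried its 12 peaks at only 0.50 and 0.56 TPM. The long imprinted transcript Kcnq1ot1, a single block of 84395 bases, held its 16 peaks at folds between 2.17 and 7.93, and its levels were 15.0 and 16.2 TPM. Apart from Kmt2d and Lrp6, these 12 genes ranged between 7984 and 116825 exonic bases, far above the median of 4365 bases of all carriers.

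**Figure D3:**
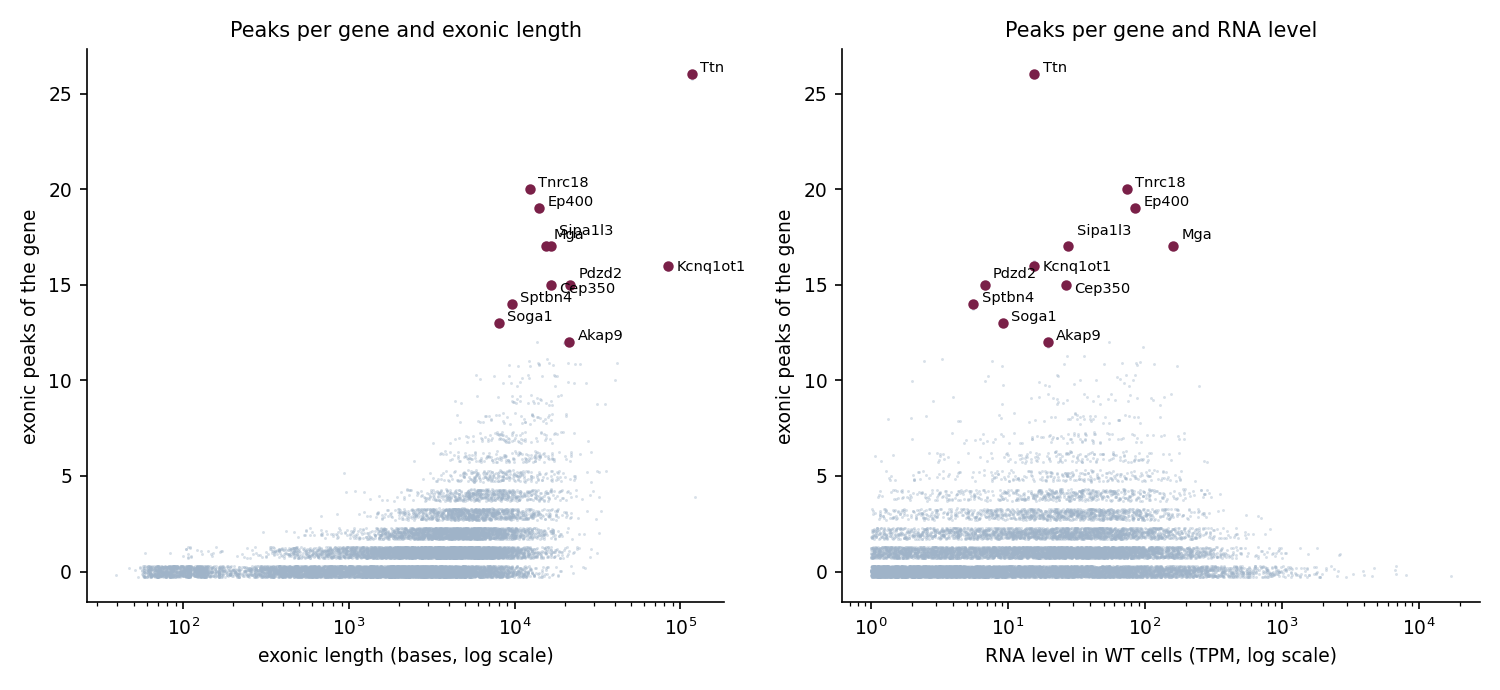
Each grey dot is a gene at 1 TPM or more, with its number of exonic m6A peaks (vertical, jittered by up to 0.3) against exonic length in bases (left, log scale) or mean RNA level in TPM (right, log scale). Purple dots are those of the 12 genes with the most peaks that reach 1 TPM, from Ttn with 26 to Akap9 with 12, all at the long end on the left and spread over levels on the right.

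The strongest peaks by fold were found at low RNA levels and mostly in the last exon block. The largest fold of all, 62.2, was on Tagap, which encodes a GTPase-activating protein of T cells, at chr17:7933027-7934562. Its summit lay in the last of 10 blocks, 1309 bases before the 3′ end, and the gene had 12.9 and 11.3 TPM. An opposite-strand gene shares 23.3% of the exonic bases of Tagap. Gpr161, an orphan receptor that dampens Hedgehog signalling, had 6 exonic peaks, the strongest of 49.9-fold in its last block, at 2.77 and 3.40 TPM. Ifnar2, a chain of the type I interferon receptor, had 1 peak of 49.8-fold in the last of 9 blocks. Sox1, a neural transcription factor gene of a single exon, had a 48.2-fold peak of 2913 bases at chr8:12395498-12398410, at 6.12 and 5.28 TPM. Snx20 followed with 47.3-fold, Prdm16 with 45.3, Prdm9 with 45.0, Gja4 with 44.6, Fgf10 with 44.5 and Hivep2 with 44.2. Prdm9 encodes the histone methyltransferase that places meiotic recombination, and Fgf10 a fibroblast growth factor. Of the 9 genes with more than 1 block, Prdm16 alone had its strongest summit outside the last. All 10 genes lay between 1.34 and 12.1 TPM on the mean of both libraries, below the carriers' median of 23.7 TPM.

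Peaks on exons of genes silent or nearly so in total RNA were few. Among 28416 genes under 0.1 TPM, 510 had an exonic peak (1.79%), and 277 of these had no count in either library. Together they held 597 peaks, or 2.77% of the exonic peaks assigned to a gene. That count was 239 in the upper 0.5 of the peaks by significance, and 1078 when a shared peak was counted for every gene it touched. Of the 510, 159 lay inside the body of a gene at 1 TPM or more, and 111 shared at least 10% of their exonic bases with another gene. The strongest was on A230004M16Rik, a clone-named gene with no count in either library and a 35.0-fold peak. Gm42863 followed with 29.4-fold and Ifi206, a member of the interferon-inducible p200 family, with 28.9-fold. Gm6185, Gm26905 and Gm45799 had 28.4, 27.3 and 25.6-fold. The peaks of A230004M16Rik, Gm42863 and Gm6185 had no summit on an exon of the gene. Of the 6, only Gm45799 lay within the body of a gene at 1 TPM or more.

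At the other end, some of the most abundant RNAs had no peak in exon or intron. Apart from mitochondrial and ribosomal protein genes, the highest was Gm26917 with 16914 TPM in WT_1 and 17385 in WT_2. The RNA components of RNase P and RNase MRP, Rpph1 and Rmrp, had 7633 and 5990 TPM and 7758 and 5771 TPM, and the 7SK RNA gene Rn7sk 4151 and 3672 TPM. Among protein-coding genes, Eef1a1, the elongation factor that brings tRNA to the ribosome, had 4440 and 4636 TPM, and Actb, cytoplasmic β-actin, 2628 and 2542 TPM. Gm23935, of 57 bases, differed widely between the libraries at 12049 and 1538 TPM, as did Gm42418 at 3171 and 1650 TPM. Hist1h4k, a histone H4 gene, and Gm8730 completed the 10. Of these 10, 8 consist of a single exon block. Rmrp and Gm42418 share 45.8% and 99.5% of their exonic bases with genes on the other strand. Gm26917 (chr17:39843013-39846341) and Gm42418 (chr17:39846958-39848788) lie side by side on the plus strand. Whether the counts of the Gm genes come from repeated sequence was not tested, and the treatment of reads with several matches is not given. Ribosomal protein genes were set apart by name, so genes named otherwise stayed in.

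Along genes, summits were most frequent per kilobase in the last exon block. Of 15863 summits on exons of genes of 2 or more blocks, 8226 (51.9%) lay in the last block, which made up 37.8% of the exonic bases of the same 9565 genes. The internal blocks held 40.3% of the summits on 54.0% of the bases, and the first blocks 7.86% on 8.16%. Per kilobase this was 0.406 summits in last blocks, 0.221 in internal and 0.285 in first blocks. Peaks in last blocks were also stronger, with a median of 6.97-fold, against 5.81 in internal and 5.75 in first blocks. At gene level, 4599 of the 9565 genes (48.1%) had summits in the last block only, 1770 (18.5%) in internal blocks only, and 1993 (20.8%) in both of these kinds. The share in last blocks differed little with RNA level, between 50.3% and 55.8% in all 8 bins. The share in first blocks was 21.2% in genes with no count, on 104 summits, and between 6.29% and 9.64% in the bins from 0.1 TPM upward.

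Within the last block the summits lay towards its 5′ side. The fifth of the block nearest to the preceding intron held 43.0% of its summits and the fifth at the 3′ end 7.09%. The median distance of a last-block summit from the block's beginning was 397 bases and from the 3′ end 1318 bases. Stop codons commonly lie early in the last exon, but the files carry no coding annotation and the distance to stop codons was not measured. Over the joined exons as a whole the summits were spread more evenly, with 10 equal parts holding 8.16% at the 5′ end, between 9.61% and 11.6% in the next 8, and 7.51% at the 3′ end.

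Internal blocks held a summit mainly where they were long. Among genes at 1 TPM or more, 0.346% of 35557 internal blocks under 100 bases had one, 0.996% of those of 100 to 200 bases, 5.20% at 200 to 400 bases, 22.0% at 400 to 1000 bases and 28.9% at 1000 to 2000 bases. Last blocks of 400 to 1000 bases had one in 36.7%, first blocks of that length in 18.7%. The last blocks of 2000 bases or more had one in 73.3%. Longer blocks offer more bases, and the part of this was not tested. The rate per kilobase was 0.071 summits in internal blocks of 100 to 200 bases and 0.365 at 400 to 1000 bases. It was lower again at 2000 bases or more, with 0.106 per kb. No peak was narrower than 277 bases in genome coordinates, so a peak could cover a short exon but not fit inside one. What this minimum contributes to the low rate in short blocks was not tested.

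**Figure D4:**
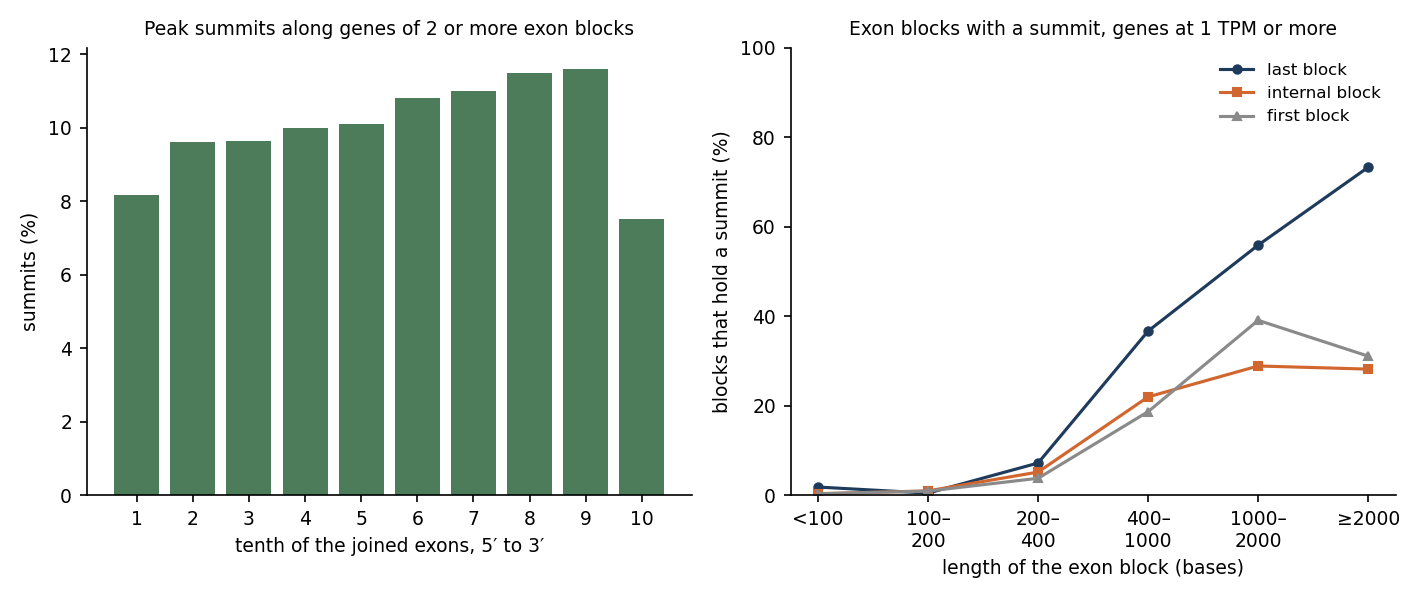
The left panel plots the percentage of 15863 peak summits in 10 equal parts of the joined exons, 5′ to 3′, in genes of 2 or more exon blocks. The right panel plots the percentage of last, internal and first blocks that hold a summit against block length in bases, for genes at 1 TPM or more. Below 200 bases all 3 kinds stay under 2%, and from 400 bases upward last blocks lie above the others.

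Peaks in introns concerned fewer genes. Of the genes at 1 TPM or more, 2860 had at least 1 intronic peak (16.3%), and 2185 of these had exonic peaks too. Among genes of 2 or more blocks, the share by length of the gene body was 3.63% under 10 kb, 12.6% at 10 to 30 kb, 29.9% at 30 to 100 kb, 62.7% at 100 to 300 kb and 88.9% in the 234 genes of 300 kb or more. Per 100 kb of intron, however, the rate stayed between 1.07 and 1.35 peaks in all 5 length classes. Chd1, which encodes a chromatin remodeller needed for the open chromatin of stem cells, was assigned 58 intronic peaks, the most of all genes. Its body spans chr17:15704967-17394898 in the table, so other genes and intergenic sequence lie within that span. Gucy1a2 had 28 intronic peaks, and A830018L16Rik, Gm26573 and Cntnap2 27 each. Cntnap2, a neurexin-like gene with a very long body, had 2.86 and 3.02 TPM and no exonic peak. Pkhd1 had 24 intronic peaks at 0.37 and 0.33 TPM.

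Gene classes were compared at 1 TPM or more, each beside the share among all genes in the same bins of level and length. Of 364 zinc finger genes named Zfp, which encode DNA-binding proteins that often silence retroelements, 338 carried an exonic peak (92.9%), against 70.9% in the same bins. The median fold of their strongest peaks was 11.8, and 8.15 over all carriers. It was 9.72 in carriers between 10 and 30 TPM, where the Zfp genes' median level of 18.55 TPM lay. Zfp827, Zfp407 and Zfp638 had 8 peaks each, of which 5, 5 and 6 had the summit on an exon. Of 85 genes named as cytosolic ribosomal proteins, 7 carried a peak (8.24%), against 39.4% in the same bins. With the summit required on an exon, 4.71% did. Those 7 had 1 peak each, at most 4.73-fold, on Rpl7l1. The class was taken by name, so it also holds genes named as like a ribosomal protein, Rpl7l1 among them. Of 68 replication-dependent histone genes, whose messages end in a stem-loop in place of a poly(A) tail, 3 carried a peak (4.41%), against 18.1% in the same bins. They were Hist2h2be with 2 peaks and Hist2h3c2 and Hist1h1c with 1 each, and none was left in the upper 0.5 of the peaks by significance. The genes of these 3 classes named here were chosen after their values were seen. All 3 families hold members of similar sequence, and the sources used here do not give the treatment of reads with several matches.

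By transcript type, 8425 of 12089 protein-coding genes carried a peak (69.7%), against 67.1% in the same bins, and 294 of 700 long non-coding RNA genes (42.0%), against 40.1%. Among small nucleolar RNA genes, of a median length of 128 bases, it was 1 of 199 (0.503%), against 7.10%. Genes of 1 exon block and at least 1 kb carried a peak in 30.5% of cases, against 49.0% in the same bins. Genes of several blocks and that length did so in 69.6%, against 67.5%. Types come from RefSeq symbols, which 14677 of the 17562 genes matched.

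In the lists that follow, a gene without a peak is one with no exonic peak. Of 20 lists of genes by function, 9 had a share of carriers above that of the same bins and 11 below it. The immediate early genes, transcription factors and phosphatases switched on fast by growth signals, stood highest, with 15 of 16 (93.8%) against 58.6%. Klf6 had 4 peaks at 56.3 and 55.8 TPM, Dusp6 3 at 17.1 and 15.7 TPM, Nr4a1 3 at 72.1 and 73.5 TPM, and Atf3 2 with a maximum of 28.1-fold at 9.07 and 14.1 TPM. Jund, at 223 and 216 TPM, was the exception, and shares 52.6% of its exonic bases with a gene on the other strand. The carriers of this list had a median fold of 12.4, against 8.15 over all carriers. Carriers between 10 and 30 TPM, where the list's median level of 22.0 TPM lay, had 9.72.

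Signalling and chromatin lists followed. Of 23 Wnt pathway genes 20 carried a peak (87.0%), against 72.3% in the same bins. The Wnt co-receptor genes Lrp6 and Lrp5 had 12 and 9 peaks, of which 7 and 3 had the summit on an exon. Axin1 and Axin2, scaffolds of β-catenin destruction, had 5 and 4 peaks, of which 3 and 4 did. Dvl2 and T had none. The Nodal and TGF-β list stood at 19 of 22 (86.4%), against 66.6%, with 5 peaks each on the repressors Skil and Ski, of which 3 and 4 had the summit on an exon. Its members Foxh1 and Id3 had none. In the p53 list the share was 16 of 19 (84.2%), against 65.9%, with 5 peaks on the nuclease gene Aen, while Trp53 itself, at 330 and 323 TPM, had none. The H3K9 demethylases stood at 10 of 11 (90.9%), against 79.5%. Kdm3b and Jmjd1c had 5 peaks each, 3 and 2 of them with the summit on an exon, Phf2 and Kdm3a had 4, and the exception was Kdm1b at 16.3 and 18.3 TPM. The enzymes and readers of H3K9 methylation had 14 of 18 (77.8%), against 77.7%. There Setdb2 had 7 peaks, and neither the corepressor gene Trim28, at 731 and 735 TPM, nor Cbx5, which encodes HP1α, had any. Polycomb subunits stood at 25 of 31 (80.6%), against 70.2%, with 5 peaks on Aebp2 and none on Epop or Rbbp7. In the Myc family 10 of 12 carried a peak (83.3%), against 72.2%.

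Of 25 naive pluripotency genes 19 carried a peak (76.0%), against 58.3% in the same bins. Lifr, the LIF receptor, and the transcription factor gene Tbx3 had 4 peaks each, and Sall4, Nr5a2, Esrrb, Klf5 and Nr0b1 3 each. Klf4 had 2 peaks, the stronger of 6.78-fold, at 458 and 469 TPM. Sox2 had 1 of 5.32-fold at 477 and 445 TPM, and Nanog 1 of 4.34-fold at 1044 and 1063 TPM. Tfcp2l1 had no exonic peak despite 772 and 801 TPM over 9438 exonic bases, and Pou5f1, which encodes Oct4, none at 718 and 776 TPM. Klf2, Lin28a, Stat3 and Dppa3 had none either. The median fold of the carriers in this list was 5.32, below the 8.15 of all carriers. Their RNA levels were higher, with a list median of 269 TPM.

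The m6A machinery itself stood at 16 of 25 (64.0%), against 75.8% in the same bins. Among the writer subunits, Zc3h13 had 10 exonic peaks, 5 with the summit on an exon, at 65.0 and 67.4 TPM. Virma had 8, 5 of them so, at 61.5 and 67.0 TPM, and Wtap 3 at 101 and 102 TPM. Mettl4, which encodes a related methyltransferase, had 4. The catalytic pair Mettl3 and Mettl14 had none, at 23.1 and 23.5 TPM and at 20.5 and 20.8 TPM, and 21.1% of the exonic bases of Mettl3 are shared with a gene on the other strand. The demethylase genes Alkbh5 and Fto had 3 and 2 peaks, and the readers Ythdc1, Ythdf1, Ythdf2 and Ythdf3 had 3, 2, 2 and 2. Fto, Ythdf1 and Ythdf2 had 1 each with the summit on an exon. Hnrnpc and Hnrnpa2b1, at 426 and 259 TPM on the mean of both libraries, had none. The lists for DNA methylation and TET enzymes, with 10 of 15 (66.7%, against 72.5%), and for imprinted genes, with 16 of 25 (64.0%, against 70.8%), were also below the same bins. In the first, Tet3 had 6 peaks and Tet2 5, and Dnmt1 and Dnmt3b had none. Long non-coding RNAs stood at 10 of 19 (52.6%), against 59.9%, where Kcnq1ot1 had the 16 given above and Firre and Meg3 had 3 each, and the abundant nuclear RNA Malat1, at 1095 and 1139 TPM, had none.

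Housekeeping lists and the germline list stood lowest. Of 33 nuclear genes of oxidative phosphorylation 7 carried a peak (21.2%), against 45.5% in the same bins, and of 31 proteasome subunits 8 (25.8%), against 49.5%. The first share was 6.06% with the summit required on an exon, 3.03% with at least 0.5 of the peak there and 9.09% in the upper 0.5 of peaks by significance, where the proteasome share was 6.45%. Ndufs4, a subunit of complex I, had a single peak of 32.5-fold at 96.2 and 97.8 TPM. Host genes of small nucleolar RNAs had 3 of 14 (21.4%), against 54.2%. Glycolysis had 7 of 19 (36.8%), against 62.3%, with 4 peaks on Hk1 and none on Slc2a3 or Pkm. Translation factors had 12 of 28 (42.9%), against 58.3%, and SR splicing factors 6 of 13 (46.2%), against 62.6%. The germline and piRNA genes, which naive cells transcribe in part, had 2 of 13 (15.4%), against 61.1%. Those were Mov10l1, a helicase of piRNA production, with 2 peaks, and Tex19.1 with 1. Rnf17, which encodes a Tudor domain protein, at 102 and 104 TPM, and the germ-cell RNA-binding protein gene Dazl, at 41.5 and 44.1 TPM, had none. The lists hold between 11 and 33 genes at this level, and the same-bin shares adjust for RNA level and exonic length only.

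**Figure D5:**
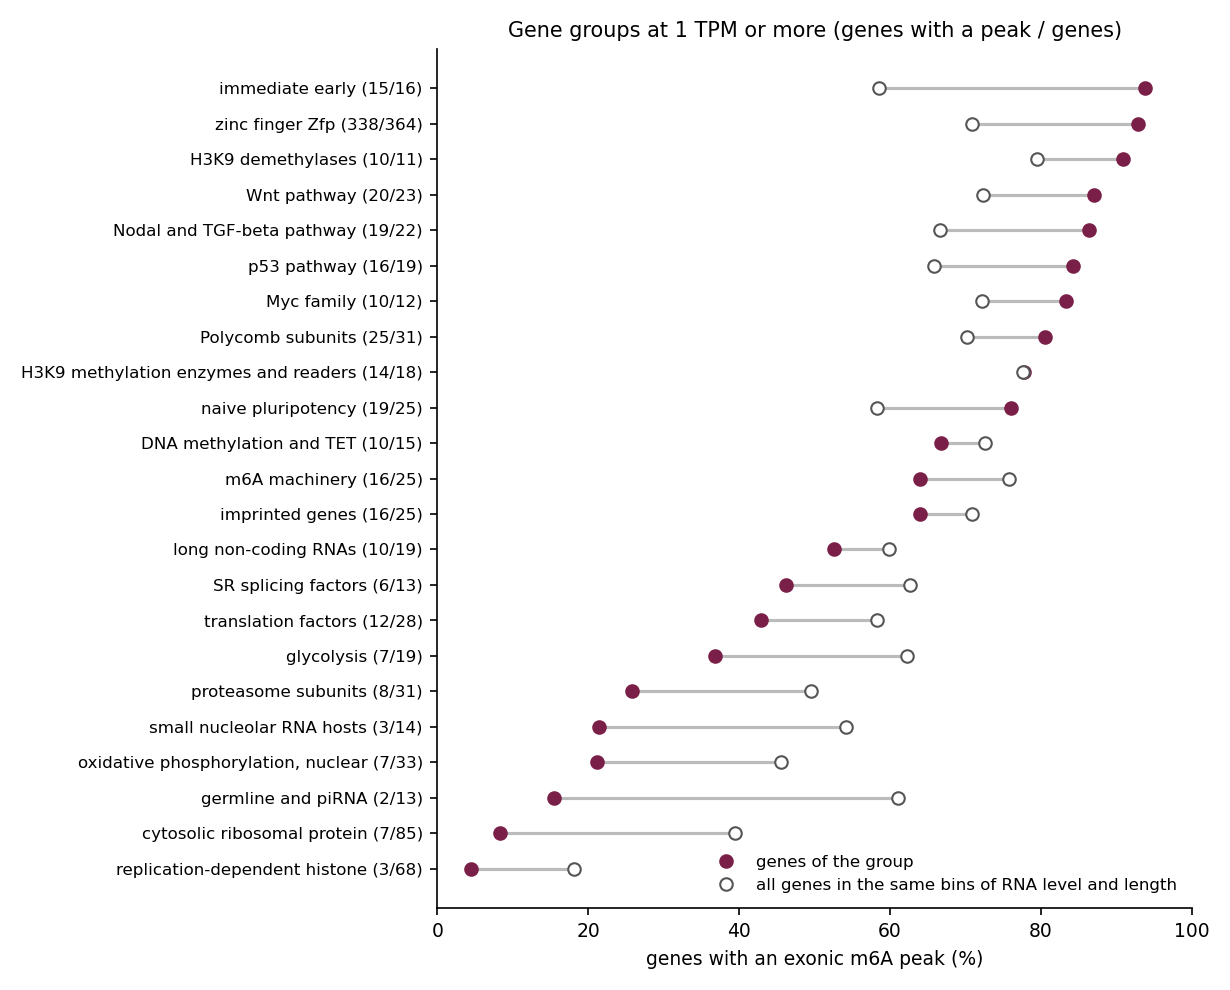
For each gene group (rows, with genes carrying a peak and genes at 1 TPM or more in brackets), the filled dot is the percentage of its genes with an exonic m6A peak and the open dot the percentage among all genes in the same bins of RNA level and exonic length. Immediate early and Zfp genes lie to the right of their open dots, at 93.8% and 92.9%, and histone, ribosomal protein and germline genes to the left, at 4.41%, 8.24% and 15.4%.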

How the data were processed

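The authors deposited 1 peak list for the WT m6A samples and a table of counts per gene. The submitters' processing notes name, for the series, Bowtie2 2.3.4.1, edgeR 3.22.5, FastQC, featureCounts 1.6.3, HISAT2 2.1.0, MACS2 2.1.1, Picard 2.16.0, SAMtools 1.7 and Trimmomatic 0.33.0, with mm10 as the mouse build. The sources used here do not tell which tool made which file, nor how 2 immunoprecipitates and 2 inputs became 1 list. The deposited list gives for each peak a fold enrichment over input, a −log10 q and a summit. Every peak had a −log10 q of at least 1.31, which is a q of 0.05. These folds and q values are the authors' own and served only to describe and rank peaks within the list. The list has 2 more columns without labels, which were not used, and the 2 D395A columns of the deposited counts were not used either.

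The WT counts were divided by the exonic length of the deposited table and scaled to TPM in each library, and levels are the mean of both. Exons of a gene were merged to blocks. Peaks were intersected with them (bedtools 2.31.1, Python 3.11.15, pandas 2.3.3, scipy 1.17.1), placed once in the order exon, intron, within 5 kb and distal, and given to the gene with the most shared exonic bases. For gene groups, the share of carriers among all genes in the same bins of level and length was averaged over the genes of the group, which are themselves part of those bins. With 1 peak list and no second condition no test between groups was run. The placement was run on simulated peaks in the middle of long exon blocks of genes that overlap no exon of another gene. Shared exons, short overlaps, introns and flanks were not tried in that way.

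Genes named are the 12 with the most exonic peaks, the 10 with the strongest peak at 1 TPM or more, the 10 highest without any peak (mitochondrial and ribosomal protein genes apart), the 6 strongest under 0.1 TPM, the 6 with the most intronic peaks, and in each list up to 4 carriers with the most peaks and up to 2 others of highest TPM. Genes named beyond this rule were chosen after their values were seen, as were the sequences shown. The members, lists and bins were chosen with earlier results of these data known. RefSeq sequences are on GRCm38.p6, which shares its coordinates with mm10. No genome was used, so motifs at summits elsewhere were not searched.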

Additional observations from a re-analysis of the deposited data

How the results depend on the processing

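No paired analysis was possible because the results come from no test between groups. Of the recomputed values 101 moved by less than their spread or limit, 63 moved and 1 reversed. The 101 include every value under the merging of near peaks, which left the list as it was. With at least 0.5 of the peak on the exons, carriers were 49.13% of genes at 1 TPM or more, exons held 32.59% of peaks and last blocks 56.44%, median carrier length was 4608 bases, the rho of peaks with level was 0.1757 and with length 0.5632, 133 genes had 5 or more peaks, and the median strongest fold was 7.979. With the summit on the exon these were 49.64%, 35.35%, 4556 bases, 225 genes and 8.079-fold, with 363 peaks on genes under 0.1 TPM. In the upper 0.5 of peaks by −log10 q they were 43.42% of genes, 55.28% on exons, 54.57% in last blocks, 4627 bases, a length rho of 0.4973, 214 genes, 9.706-fold and 239 low-level peaks. Counting shared peaks for every gene gave 57.06%, 4282 bases, a length rho of 0.5476, 8.26-fold and 1078 low-level peaks.

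Genes with no exonic overlap gave 52.43%, 54.41% in last blocks, 4048 bases, 348 genes and 8.366-fold. Their rho was 0.2192 with level and 0.5701 with length, and their exons held 29.37% of all peaks. At 10 TPM or more the values were 64.33%, 4625 bases, rho −0.1013 with level, which reversed, 0.4729 with length, and 7.517-fold. Without a filter they were 22.13%, 4133 bases, 0.5896, 0.5147 and 7.976-fold. These last 2 settings give no count of low-level peaks. CPM in place of TPM gave 63.77%, 4626 bases, 0.2111, 0.4396 and 8.26-fold. Leaving out a library gave median lengths of 4368 to 4370 bases, rho of 0.1826 to 0.1948 with level and 0.5474 to 0.5508 with length. Class shares and the length rho were recomputed by choices made after the data were seen. The classes recomputed were Zfp, ribosomal protein, histone, immediate early, oxidative phosphorylation, germline and proteasome genes. The other classes and lists, among them those near their same-bin share, were not recomputed. The 7 classes recomputed lay on the same side of their same-bin share in all 12 settings. Those settings count the main one and the merging of near peaks, which left the list as it was. The cause of these shifts was not tested. Merging peaks within 100 bases changed nothing, as the smallest gap was 139 bases. The list has no labelled read depth, so how far depth limits the peaks of scarce genes was not measured.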

Other observations

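Several named genes below 1 TPM, which the class shares leave out, also carried exonic peaks. Of all 6481 genes between 0.1 and 1 TPM, 22.9% carried one. Among immediate early genes, Egr1, at 0.42 TPM on the mean of both libraries, had 2, Fosb, at 0.23 TPM, 3, and Fosl1, at 0.36 TPM, 2, of which 1 had its summit on an exon. Mecom, which encodes a zinc finger regulator with a methyltransferase domain, had 3 at 0.52 TPM, and Sycp1, a component of the meiotic synaptonemal complex, 2 at 0.95 TPM, of which 1 did. Egr3, at 0 counts, had none. These genes were chosen after their values were seen.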
